A study of Homo sapiens with 14 samples.

Results

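A set of 40 direct target genes of the tumour suppressor p53 was followed in 2 treatments. In one, the nuclear matrix protein SAF-A was acutely targeted for degradation, and in the other, Nutlin was given. The 40 genes were taken by symbol from a list whose rule uses no measured value. That rule leaves out feedback, arrest and death genes, and those for which general cell stress is the main known inducer. Some members, such as PERP and TP53INP1, are still linked to p53-driven death. The list was drawn up with earlier results of these data known. All 40 matched a gene identifier among the 78686 of the series. By what their products do they fall into 5 role groups: DNA repair and nucleotide supply (5 genes), metabolism and redox (10), survival, autophagy and mitochondrial quality (10), ligands, receptors and signalling (8), and RNA binding, transcription and protein turnover (7).

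All 14 libraries came from HCT116, a colon carcinoma cell line known to carry wild-type p53, engineered as osTIR1(F74G) SAF-A-mAID-Halo. In these cells SAF-A, encoded by HNRNPU, carries a degron and a Halo tag, and the ligand 5-Ph-IAA recruits the plant-derived osTIR1(F74G) so that the tagged protein is degraded. Nutlin blocks the binding of MDM2 to p53. A time-course set of 3 groups held cells given DMSO vehicle, 5-Ph-IAA for 3 h and 5-Ph-IAA for 12 h. A separate Nutlin set of 4 groups held cells given Nutlin for 3 h, 5-Ph-IAA with Nutlin for 3 h, 5-Ph-IAA alone for 3 h as its control, and DMSO vehicle. Every group had 2 libraries of total RNA, and the control cells in both sets carried the same osTIR1 and SAF-A alleles as the treated cells. The labels give no doses, no clone information and no statement that replicates were separate cultures, so a p-value here measures the spread between these libraries, which may be technical.

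p53 is a transcription factor that binds a response element made of 2 half-sites of 10 bases in or near its target genes. MDM2 normally marks it for degradation. Nutlin releases it, and target genes are then transcribed. The targets best known for arrest and death, such as CDKN1A, are accompanied by a wide set that repairs DNA, adjusts metabolism, protects mitochondria and feeds signals to neighbouring cells, and these are the genes described here.

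Promoter sequence is shown first because p53 acts on these genes through such elements. RefSeq windows of GRCh38.p14, from 250 bases before to 50 bases after a start site, were held for 31 of the 40 members in 43 windows. The p53 response element was searched by its consensus as 2 half-sites, directly adjacent or 1 base apart, with C at position 4 and G at position 7 of each half-site required. The consensus reads the same on both strands, so one pass covers both. The allowance of 1 base was added after the DDB2 window had been read. A match is a description of the letters and not evidence of binding, and a window without one says nothing about elements elsewhere in the gene. At least 17 of 20 letters matched in 5 members, 16.1% of the 31, against 2.38% of all 35116 windows and 2.91% of all 27305 gene symbols. With adjacent half-sites alone the share was again 16.1% of members, against 1.12% of windows and 1.37% of gene symbols. The members were chosen as known p53 targets, so a higher share than over all genes is built into the choice. The 5 best elements, with that of PRKAB1, which matched 16 letters and belongs to a member that rose with Nutlin, are written 5′ to 3′ on the gene's strand with matching letters in capitals.
DDB2, chr11:47214979-47214999, plus strand: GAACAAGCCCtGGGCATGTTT
AEN, chr15:88621306-88621325, plus strand: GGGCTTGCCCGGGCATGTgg
PANK1, chr10:89645256-89645275, minus strand: GGGCAgGaCTGGGCATGCTC
FDXR, chr17:74872996-74873015, minus strand: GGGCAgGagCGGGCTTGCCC
RPS27L, chr15:63157527-63157546, minus strand: GGcCTAGagCAGACAAGCCC
PRKAB1, chr12:119668020-119668039, plus strand: GttCTTGCCgcGGCTTGCCT
DDB2 matched all 20 letters, and the lower-case base in its middle is the spacer. AEN and PANK1 matched 18 each, and FDXR and RPS27L matched 17 each. At least 16 letters matched in 10 members, 32.3% of those with a window, against 9.94% of all gene symbols. KITLG, PTP4A1, TRIAP1 and ZMAT3 matched 16 letters as PRKAB1 did. Their Nutlin effects averaged with and without 5-Ph-IAA were below 0, at -0.26, -0.22, -0.0022 and -0.054 (log2), and none passed.

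Whole windows are given for 3 members. The DDB2 and PANK1 windows hold best-matching elements, here in capitals as above; PANK1 was taken over AEN, which tied with it, because its RNA changed in these cells. ANKRA2 is the gene with the smallest p for the Nutlin effect among those with a window, and its window is in lower case because no element reached 16 letters in it.
DDB2, chr11:47214724-47215023, plus strand: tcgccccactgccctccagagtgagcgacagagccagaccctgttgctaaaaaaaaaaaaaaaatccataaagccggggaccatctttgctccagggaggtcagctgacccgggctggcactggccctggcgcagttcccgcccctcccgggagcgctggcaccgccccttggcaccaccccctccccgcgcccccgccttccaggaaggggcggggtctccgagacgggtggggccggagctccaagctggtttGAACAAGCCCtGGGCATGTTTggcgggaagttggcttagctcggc
PANK1, chr10:89645193-89645492, minus strand: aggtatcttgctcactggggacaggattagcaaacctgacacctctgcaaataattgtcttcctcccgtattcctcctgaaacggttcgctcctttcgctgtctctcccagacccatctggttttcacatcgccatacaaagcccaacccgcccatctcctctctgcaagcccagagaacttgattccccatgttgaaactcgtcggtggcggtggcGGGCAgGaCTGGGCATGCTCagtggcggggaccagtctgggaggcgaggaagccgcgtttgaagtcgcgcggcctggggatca
ANKRA2, chr5:73565590-73565889, minus strand: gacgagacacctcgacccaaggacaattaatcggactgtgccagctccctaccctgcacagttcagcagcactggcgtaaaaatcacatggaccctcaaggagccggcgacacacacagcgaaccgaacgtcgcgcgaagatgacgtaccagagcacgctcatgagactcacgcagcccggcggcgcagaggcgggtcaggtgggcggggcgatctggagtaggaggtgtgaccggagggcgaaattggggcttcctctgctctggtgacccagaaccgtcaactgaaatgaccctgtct

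Levels of the 40 members spanned a wide range in these cells. On the length-normalised TPM scale, 19 had a median of at least 10 TPM over the 14 libraries and 3 had a median under 1 TPM. RPS27L, a ribosomal protein paralogue that stabilises p53, stood highest with a median of 123 TPM (93.7 to 255 TPM), followed by the iron-sulphur cluster scaffold ISCU at 76.7 TPM and the KIT receptor ligand KITLG at 68.6 TPM. The lipid transporter ABCA12 (0.445 TPM) and the antiviral protein TRIM22 (0.36 TPM) were the lowest of those tested. SPATA18, which takes part in mitochondrial quality control, had reads in 1 vehicle library of the Nutlin set only, where it reached 0.0749 CPM, and was not tested. The other 39 members passed the filter on low counts in both sets. Of the 40, 23 overlap an annotated gene on the opposite strand; the library kit is stranded, but the strand setting of the counting is not given in the sources used here, so antisense reads may be included.

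Estimated counts summed to between 29578916 and 35140464 in the time-course libraries except for the second 12 h library, which had 3535163, and to between 12646787 and 17233327 in the Nutlin set. The Nutlin libraries and the 12 h libraries stood apart from the rest. In the Nutlin set the second Nutlin library lay at 58.3 on the first principal component (22.5% of the variance), where the other 7 lay between -21.2 and 1.15, and the first Nutlin library lay lowest on the second component at -42.2. In the time course the second 12 h library lay at 113 on the first component and the first 12 h library at -107 on the second. Colon epithelial markers summed to 3500 to 5500 TPM in every library, with 1 of 6 under 1 TPM, while 10 markers of blood, endothelium, fibroblasts and neural cells summed to 0.42 to 2.23 TPM, with 9 of 10 under 1 TPM in every library and CD3E and DCN at 0. Since the degron acts on the protein, HNRNPU RNA does not check the depletion. In the time course it averaged 527 ± 24.8 CPM in vehicle, 535 ± 16.1 CPM at 3 h and 653 ± 24.9 CPM at 12 h (SD, n = 2 each). In the Nutlin set it was 505 and 572 CPM with Nutlin, against 640 and 634 CPM in vehicle, and 573 and 619 CPM with 5-Ph-IAA and Nutlin, against 646 and 639 CPM with 5-Ph-IAA. Both Nutlin groups lay below their controls without overlap, at -0.24 ± 0.093 and -0.11 ± 0.093 (log2), and neither passed (adjusted p = 0.405 and 0.875, edgeR).

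The first question was how these p53 targets respond when Nutlin releases p53. Most members gave small positive values, and few passed the test. With Nutlin against vehicle, 28 of the 39 tested members had a log2 fold change above 0, as did 49.4% of all 17251 genes. Their median was 0.19, beside a median of -0.0033 over all genes. Only PHLDA3 rose by edgeR's quasi-likelihood test with Benjamini-Hochberg adjustment over all genes, 2.56% of members where 0.394% of all genes were called up, and no member fell, where 0.0696% of all genes were called down. At an unadjusted p under 0.05, 16 members were higher and 1 lower, against 5.23% and 5.53% of all genes. When the Nutlin effect was averaged over both arms, that is with and without 5-Ph-IAA, 5 members rose and none fell, 12.8% of members where 0.956% of all genes were called up and 0.487% down; the 5 were PHLDA3, TP53INP1, PGPEP1, ANKRA2 and PRKAB1. Their libraries are shown in the plot of CPM by library.

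**Figure D1:**
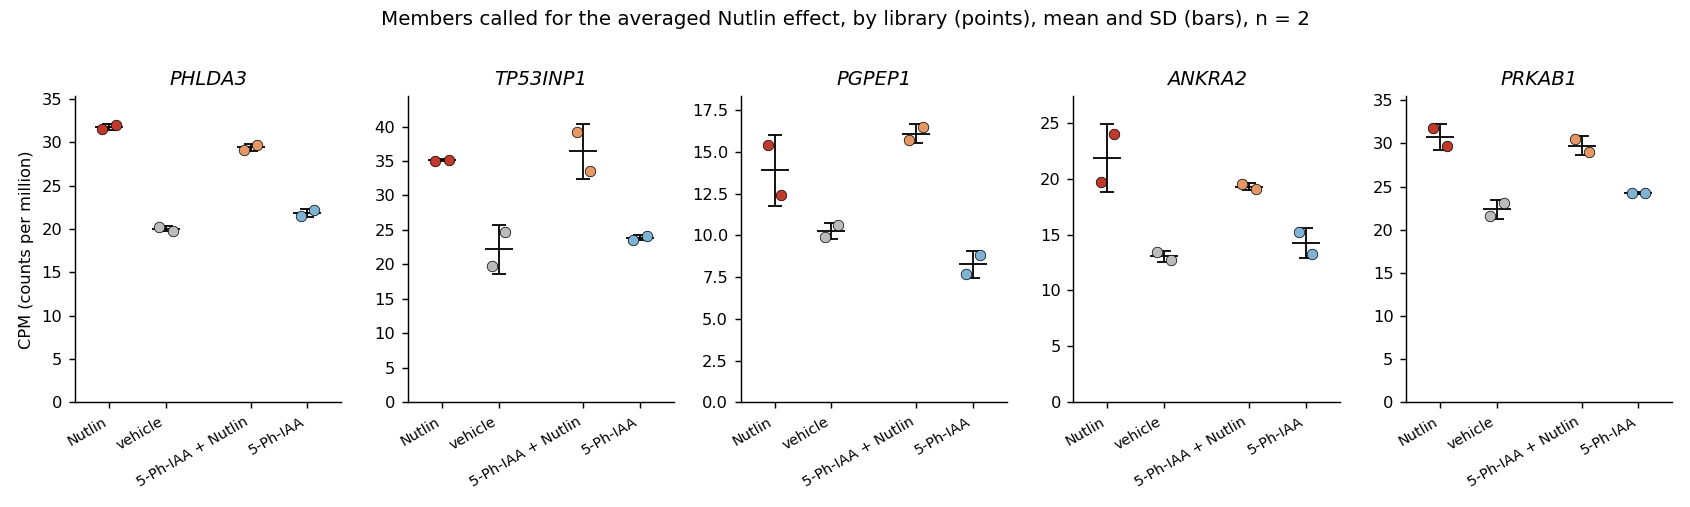
CPM (counts per 1000000 after TMM scaling) of the 5 members called for the averaged Nutlin effect, with each Nutlin group left of the group without Nutlin; points are libraries and bars the mean and SD of 2. In all 5 genes both libraries with Nutlin lie above both without, in either arm.

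PHLDA3 encodes a pleckstrin homology domain protein that restrains AKT signalling (chr1:201464383-201469237, GENCODE 29 on GRCh38, as for all genes below). Its level was 31.5 and 32.0 CPM with Nutlin, against 20.2 and 19.8 CPM in vehicle. With 5-Ph-IAA present it was 29.1 and 29.7 CPM with Nutlin, against 21.5 and 22.2 CPM without. The groups did not overlap in either arm. Its log2 fold change was 0.67 ± 0.11 (SE; 1.59-fold; adjusted p = 0.0268, edgeR) over vehicle, 0.43 ± 0.10 (adjusted p = 0.208, edgeR) in the 5-Ph-IAA arm and 0.55 ± 0.075 (adjusted p = 0.00546, edgeR) averaged. The call over vehicle was lost when the compared groups were fitted alone.

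TP53INP1, a regulator of p53-driven death and autophagy (chr8:94925972-94949411), had 35.0 and 35.2 CPM with Nutlin, against 19.7 and 24.7 CPM in vehicle. With 5-Ph-IAA it had 39.2 and 33.6 CPM with Nutlin, against 23.6 and 24.1 CPM without. Its averaged log2 fold change was 0.64 ± 0.095 (1.56-fold; adjusted p = 0.00863, edgeR). Its values in the separate arms were 0.66 ± 0.13 over vehicle and 0.61 ± 0.13 over 5-Ph-IAA, and neither passed on its own (adjusted p = 0.0845 and 0.149, edgeR).

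PGPEP1 encodes pyroglutamyl-peptidase I, which removes a terminal pyroglutamate from peptides (chr19:18340587-18369950). It had 15.4 and 12.4 CPM with Nutlin, against 9.91 and 10.6 CPM in vehicle. With 5-Ph-IAA it had 15.7 and 16.5 CPM with Nutlin, against 7.67 and 8.84 CPM without, and the wider gap lay in the 5-Ph-IAA arm. That arm gave 0.97 ± 0.16 (1.96-fold; adjusted p = 0.0415, edgeR) and was the one call among members there, 2.56% where 0.342% of all genes were called up; the averaged value was 0.70 ± 0.11 (adjusted p = 0.0153, edgeR). The call in the 5-Ph-IAA arm was lost without any one of the 6 libraries outside the Nutlin group, at 0.87 to 1.06 over all left-out libraries, and 5 members were called there without either Nutlin library, 12.8% where 2.31% and 2.33% of all genes were called without the first and without the second.

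ANKRA2, an ankyrin repeat protein that binds histone deacetylases (chr5:73552335-73565686), had 19.7 and 24.0 CPM with Nutlin, against 13.4 and 12.7 CPM in vehicle. With 5-Ph-IAA it had 19.5 and 19.1 CPM with Nutlin, against 15.2 and 13.3 CPM without. The averaged log2 fold change was 0.59 ± 0.10 (1.51-fold; adjusted p = 0.0202, edgeR). PRKAB1, a regulatory subunit of the energy sensor AMPK (chr12:119667753-119681630), had 31.8 and 29.7 CPM with Nutlin, against 21.6 and 23.1 CPM in vehicle. With 5-Ph-IAA it had 30.5 and 29.0 CPM with Nutlin, against 24.3 and 24.2 CPM without. Its averaged value was 0.38 ± 0.077 (1.30-fold; adjusted p = 0.0449, edgeR). That call was lost by DESeq2, in the fit of all 14 libraries and without any one of the 6 libraries outside the Nutlin group, with adjusted p over all alternatives from 0.00312 to 0.283. The estimated counts of PRKAB1 were not whole in any library, as RSEM gives where reads fit more than 1 transcript source.

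The remaining members gave smaller or more variable values. Over all members 29 were above 0 on average, where 49.6% of all genes were, and all 5 DNA repair genes were among them. XPC, the damage sensor of nucleotide excision repair, came closest to the threshold at 0.37 ± 0.079 (adjusted p = 0.0573, edgeR), with 64.9 and 60.9 CPM under Nutlin against 51.8 and 42.9 CPM in vehicle. DDB2, its partner in damage recognition and the gene with the full element, gave 0.18 ± 0.067 (adjusted p = 0.28, edgeR), with 62.1 and 60.9 CPM under Nutlin against 52.2 and 47.1 CPM in vehicle. In metabolism and redox, 9 of 10 members were above 0, PANK1 being the exception at -0.22 ± 0.10. In survival and autophagy 6 of 9 tested members were above 0, in RNA binding and turnover 4 of 7. Ligands, receptors and signalling gave 5 of 8 above 0 and a median of 0.057, the lowest of the 5 groups, with EPHA2 at 0.37 ± 0.11 and KITLG at -0.26 ± 0.11 as its extremes.

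The 2 Nutlin libraries lay far apart in several members. KITLG had 325 and 470 CPM, EPHA2 204 and 138 CPM, TRIAP1 46.7 and 70.2 CPM, and PTP4A1 91.6 and 50.3 CPM. The number of calls depended on these libraries. Without the first Nutlin library 13 members were called against vehicle (11 up, 2 down) among 2131 genes, or 11.6%, and without the second 9 (7 up, 2 down) among 1177, or 6.4%, while without any one of the other 6 libraries of the set none was called and PHLDA3 stood at 0.65 to 0.68. For the averaged effect the count was 14 without the first Nutlin library, where 9.07% of all genes were called, and 13 without the second, where 10.7% were. It was 0 to 2 without one of the other 6, where 0.459% to 0.551% of all genes were called: 0 without the first 5-Ph-IAA library or the first library of 5-Ph-IAA with Nutlin, 1 without the first vehicle library, the second 5-Ph-IAA library or the second library of 5-Ph-IAA with Nutlin, and 2 without the second vehicle library. The averaged log2 values kept their sign throughout, at 0.54 to 0.56 for PHLDA3, 0.56 to 0.72 for TP53INP1, 0.62 to 0.78 for PGPEP1, 0.51 to 0.66 for ANKRA2 and 0.35 to 0.40 for PRKAB1. Like PRKAB1, PGPEP1 and ANKRA2 lost the averaged call without any one of the 6 libraries outside the Nutlin group. TP53INP1 lost it without any of 4 of them and PHLDA3 without any of 3.

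Other genes responded more strongly to the same treatment. Of 32 other p53 targets from the feedback, arrest and death arms, 15 rose (46.9%) and 1 fell (3.12%) on average, beside the shares of all genes given above, with a median of 0.29. GDF15, a secreted stress cytokine, gave 2.29 ± 0.091 (adjusted p = 5.74e-07, edgeR), and the cell cycle inhibitor CDKN1A gave 1.27 ± 0.062 (adjusted p = 3e-06, edgeR), with 537 and 519 CPM under Nutlin against 200 and 197 CPM in vehicle. MDM2 gave 0.56 ± 0.073 (adjusted p = 0.00439, edgeR), about the size of PHLDA3 and ANKRA2. The integrated stress response moved in the same libraries: of its 26 tested genes on a list of 27, 19 rose and none fell, with a median of 0.86, led by DDIT3 at 3.08 ± 0.084 (adjusted p = 8.78e-08, edgeR). ATF3, SESN2 and GDF15 of the first list are also known to be induced by that response. The part of the stress response in the members' values was not tested.

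The second question was whether targeting SAF-A alters the Nutlin response of these genes. No member passed for the interaction of 5-Ph-IAA and Nutlin, and no gene of the 17251 did by edgeR. An unadjusted p under 0.05 was reached by 623 genes, or 3.61%, and DESeq2 called 1. Among members only PGPEP1 had an unadjusted p under 0.05, with a response larger by 0.54 ± 0.23 (log2) in the 5-Ph-IAA arm (adjusted p = 0.989, edgeR). PHLDA3 and ANKRA2 had smaller responses there, by differences of -0.24 ± 0.15 and -0.31 ± 0.20, and TP53INP1 differed by -0.052 ± 0.19. None of these 4 differences passed the test. Over the 39 members, 26 were higher with Nutlin in both arms, 6 were lower in both and 7 had opposite signs. The interaction value was above 0 in 38.5% of members, where it was above 0 in 51.6% of all genes. Without the first Nutlin library, 3 members (CMBL, PTP4A1 and RPS27L) and 1035 genes, or 5.65%, were called for the interaction.

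**Figure D2:**
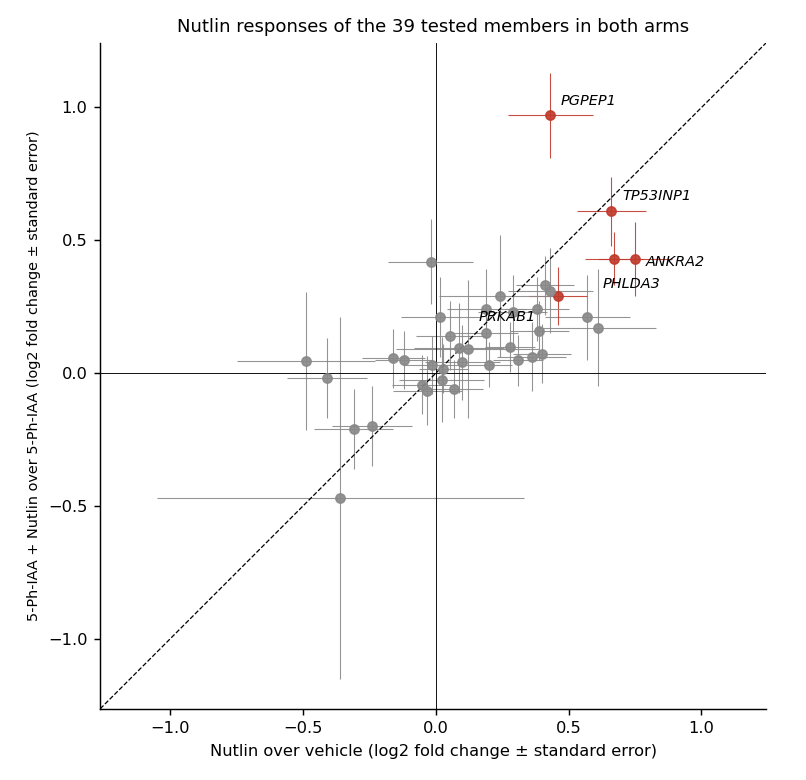
Log2 fold change of each of the 39 tested members with Nutlin over vehicle (horizontal) and with 5-Ph-IAA and Nutlin over 5-Ph-IAA (vertical), with standard errors; the dashed line marks equal responses and red points the 5 members called for the averaged effect. PGPEP1 lies above the line at 0.97 against 0.43, and PHLDA3 and ANKRA2 lie below it.

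5-Ph-IAA for 3 h without Nutlin called no member and no gene in the Nutlin set by edgeR (245 genes, or 1.42%, and 0 members had an unadjusted p under 0.05; DESeq2 called 1 gene). The members' log2 fold changes ran from -0.32 for PGPEP1 to 0.43 for ACER2, a ceramidase, around a median of 0.052. On top of Nutlin, 5-Ph-IAA again called no member and no gene by edgeR, where 1404 genes, or 8.14%, had an unadjusted p under 0.05 and DESeq2 called 24. There 4 members were higher and 2 lower at an unadjusted p under 0.05, where 4.05% and 4.09% of all genes were. PTP4A1 had the largest difference at 0.60 ± 0.26 (adjusted p = 0.611, edgeR), with 98.9 and 115 CPM for 5-Ph-IAA with Nutlin against 91.6 and 50.3 CPM for Nutlin. Without the first Nutlin library 5 members (2 up, 3 down) and 2490 genes, or 13.6%, were called in that comparison, and without the second 1 member, EPHA2, was called lower, among 42 genes, or 0.228%.

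The time course followed the same genes under 5-Ph-IAA without added p53 stimulus. The vehicle labels give no time, and no cells without the degron were given 5-Ph-IAA. An effect of the ligand or of time in culture therefore cannot be told apart from that of SAF-A loss. At 3 h the exception among members was EPHA2, the receptor tyrosine kinase for ephrin A ligands (chr1:16124337-16156087). It had 174 and 168 CPM in vehicle, 260 and 267 CPM at 3 h and 219 and 235 CPM at 12 h, so both treated groups lay above vehicle without overlap. Its log2 fold change over vehicle was 0.62 ± 0.070 at 3 h (1.54-fold; adjusted p = 0.00419, edgeR) and 0.40 ± 0.072 at 12 h (adjusted p = 0.00389, edgeR). EPHA2 was the 1 member called at 3 h, 2.56% of members where 0.063% of all 19049 genes were called up. In the Nutlin set, 5-Ph-IAA for 3 h gave EPHA2 levels of 122 and 120 CPM against 124 and 129 CPM in vehicle. The 3 h effects in the 2 sets differed by 0.70 ± 0.19 in a joint fit chosen after seeing the data (adjusted p = 0.869, edgeR), in which 0 of 39 members and 3 of 18290 genes were called, and 5 members and 740 genes had an unadjusted p under 0.05. EPHA2 was not called at 3 h or 12 h when all 14 libraries entered 1 fit. In the 3 h comparison 3 members, EPHA2, SERTAD1 and XPC, were called without the first vehicle library, where 1.35% of all genes were, and 2, EPHA2 and SERTAD1, without the second 12 h library, where 0.177% were.

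SERTAD1, a cofactor of E2F and CDK4 (chr19:40421592-40426025), followed the same course with 33.6 and 29.2 CPM in vehicle, 45.4 and 51.4 CPM at 3 h and 43.8 and 44.9 CPM at 12 h. It passed at 12 h, at 0.49 ± 0.12 (1.41-fold; adjusted p = 0.0206, edgeR), and not at 3 h, at 0.62 ± 0.11 (adjusted p = 0.0931, edgeR). In the Nutlin set, 5-Ph-IAA for 3 h gave SERTAD1 37.2 and 35.9 CPM against 37.1 and 32.8 CPM in vehicle, at 0.063 ± 0.11. Its 3 h effects in the separate sets differed by 0.57 ± 0.16 in the joint fit (adjusted p = 0.934, edgeR). EPHA2 and SERTAD1 were the only members higher than vehicle at 12 h by the test, 5.13% of members where 3.39% of all genes were called up.

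After 12 h most of the members had lower levels than in vehicle. There were 10 that fell, 25.6% of the 39 where 7.97% of all genes were called down, and 29 had a log2 fold change below 0, leaving 25.6% above 0 where 49.6% of all genes were. The median was -0.17, beside -0.0031 over all genes. In 24 members both 12 h libraries lay below both vehicle libraries, which was true of 27.9% of all genes. The plot of all members sets this response beside that to Nutlin.

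**Figure D3:**
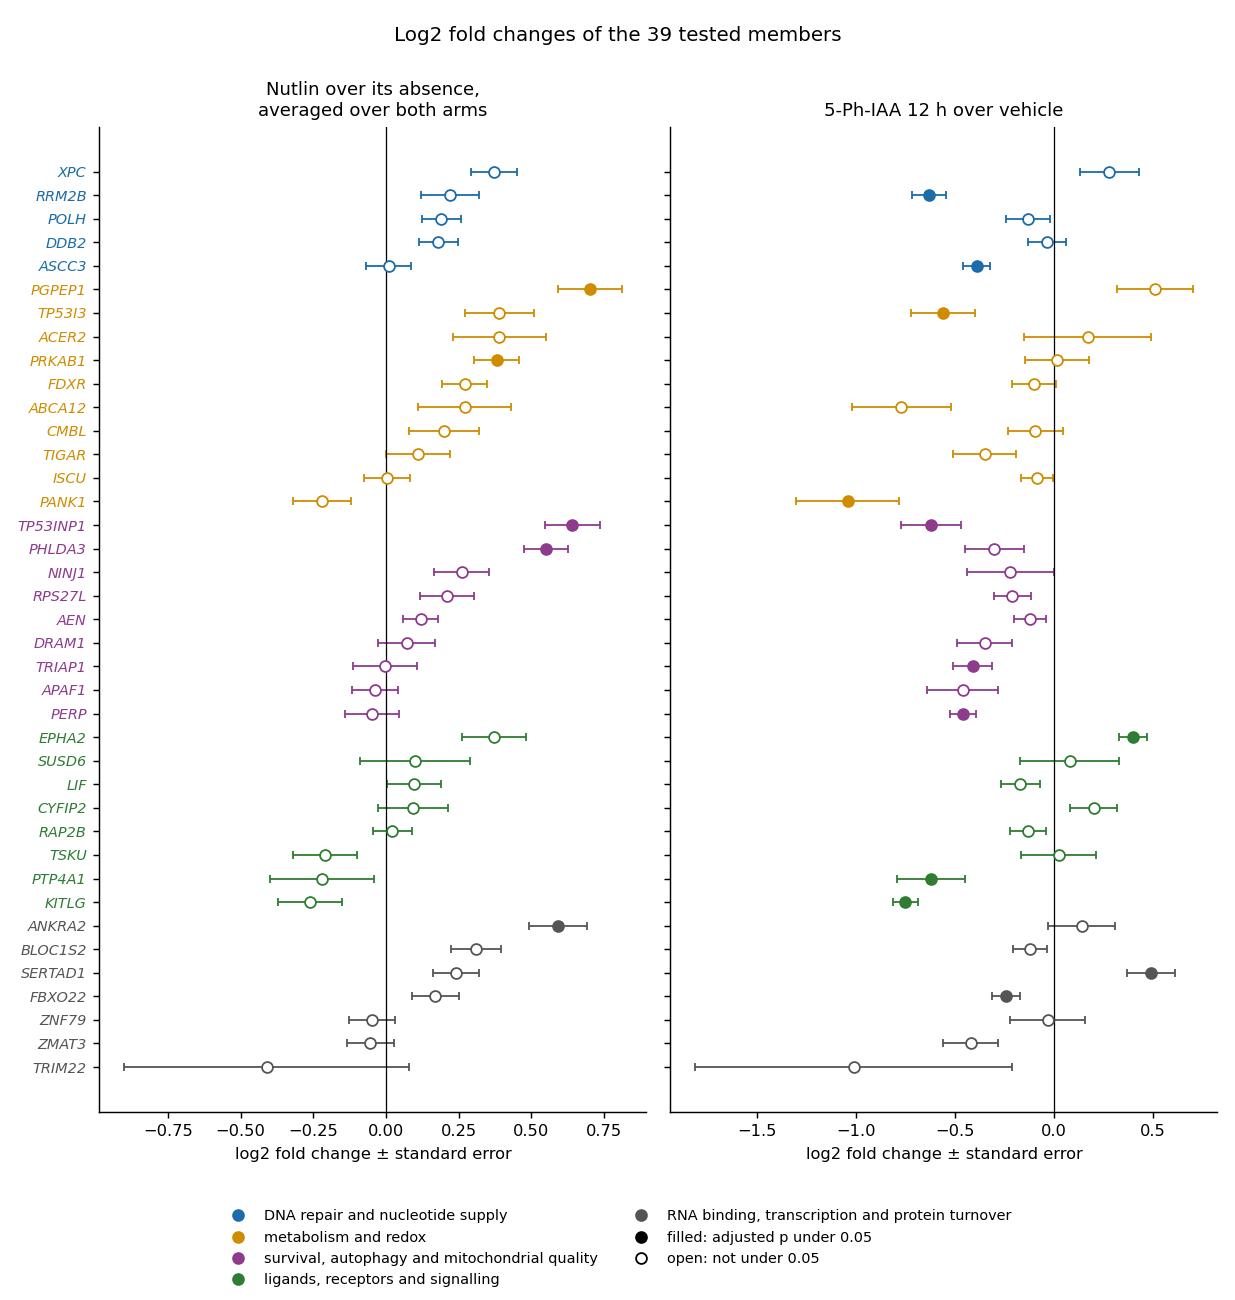
Log2 fold changes with standard errors of the 39 tested members, by role group, for the Nutlin effect averaged over both arms (left) and for 12 h of 5-Ph-IAA over vehicle (right); filled points had an adjusted p under 0.05. Nutlin values lean right of 0 with 5 filled points, and 12 h values lean left with 10 filled points below 0 and 2 above.

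Both called DNA repair members were lower at 12 h. RRM2B, the p53-inducible subunit of ribonucleotide reductase that supplies nucleotides for repair (chr8:102204502-102239118), had 148 and 162 CPM in vehicle, 141 and 133 CPM at 3 h and 103 and 95.6 CPM at 12 h. Its 12 h value over vehicle was -0.63 ± 0.086 (0.645-fold; adjusted p = 0.000988, edgeR). ASCC3, a helicase that unwinds alkylated DNA for repair (chr6:100508194-100881372), had 267 and 284 CPM in vehicle, 262 and 265 CPM at 3 h and 206 and 215 CPM at 12 h, a change of -0.39 ± 0.070 (adjusted p = 0.00371, edgeR). In both genes the 12 h libraries lay below all libraries of the other groups. POLH, XPC and DDB2 ranged from -0.13 to 0.28 and none passed.

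In metabolism and redox, PANK1, which makes the first committed step to coenzyme A (chr10:89579497-89645572) and whose promoter element is shown above, had 11.4 and 13.2 CPM in vehicle, 8.91 and 6.71 CPM at 3 h and 5.21 and 7.67 CPM at 12 h. It fell by 1.04 ± 0.26 on the log2 scale at 12 h (0.486-fold; adjusted p = 0.0219, edgeR), the largest change among the called members. TP53I3, a quinone oxidoreductase linked to p53-driven oxidative stress (chr2:24077433-24085861), had 22.5 and 23.1 CPM in vehicle, 21.5 and 27.6 CPM at 3 h and 15.6 and 15.1 CPM at 12 h. Its 12 h value was -0.56 ± 0.16 (adjusted p = 0.0442, edgeR). PGPEP1 had 19.2 and 15.6 CPM at 12 h, against 10.8 and 14.4 CPM in vehicle, at 0.51 ± 0.19 (adjusted p = 0.115, edgeR). The 6 members of the group called in no comparison ranged from -0.77 for ABCA12 to 0.17 for ACER2 at 12 h.

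All 9 tested members of the survival, autophagy and mitochondrial group were below 0 at 12 h, with a median of -0.35, and 3 of them passed. The group holds genes linked to death as well as to survival, so this was not a fall of survival genes alone. PERP, a membrane protein of desmosomes and of p53-dependent death (chr6:138088505-138107511), had 359 and 348 CPM in vehicle, 310 and 321 CPM at 3 h and 252 and 263 CPM at 12 h, a change of -0.46 ± 0.066 (adjusted p = 0.00127, edgeR). TP53INP1 had 27.0 and 30.9 CPM in vehicle, 25.7 and 24.7 CPM at 3 h and 20.4 and 15.6 CPM at 12 h, at -0.62 ± 0.15 (adjusted p = 0.022, edgeR). It was the 1 member that rose with Nutlin and fell at 12 h. TRIAP1, a mitochondrial lipid transfer protein that restrains apoptosis (chr12:120443961-120446412), had 74 and 81.2 CPM in vehicle, 78.7 and 79.1 CPM at 3 h and 61.5 and 52.6 CPM at 12 h, at -0.41 ± 0.10 (adjusted p = 0.0228, edgeR). The other 6, AEN, APAF1, DRAM1, NINJ1, PHLDA3 and RPS27L, lay between -0.46 and -0.12, and none passed.

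Ligands, receptors and signalling genes were split at 12 h. KITLG, the ligand of the receptor KIT (chr12:88492793-88580851), had 538 and 547 CPM in vehicle, 473 and 456 CPM at 3 h and 316 and 333 CPM at 12 h. It fell by 0.75 ± 0.063 on the log2 scale (0.596-fold; adjusted p = 0.000171, edgeR), the smallest adjusted p of any member. PTP4A1, a phosphatase anchored at membranes by prenylation (chr6:63521746-63583377), had 101 and 153 CPM in vehicle, 125 and 106 CPM at 3 h and 77.4 and 91.0 CPM at 12 h, at -0.62 ± 0.17 (adjusted p = 0.0332, edgeR). Its vehicle libraries lay far apart, and its estimated counts were not whole in any library; they were not whole in 92.9% of libraries for FBXO22, 50% for KITLG and 21.4% for TP53INP1 either. PTP4A1 is 1 of 8 members that overlap another gene on their own strand, as do the called PHLDA3 and PANK1. In RNA binding, transcription and protein turnover, FBXO22, the substrate receptor of an SCF ubiquitin ligase (chr15:75903859-75942510), had 211 and 220 CPM in vehicle, 211 and 203 CPM at 3 h and 182 CPM in both 12 h libraries, at -0.24 ± 0.071 (adjusted p = 0.0493, edgeR). ZMAT3, a p53-induced RNA-binding protein, had 26.7 and 30.7 CPM at 12 h, against 33.6 and 41.4 CPM in vehicle, at -0.42 ± 0.14 (adjusted p = 0.0751, edgeR), and ANKRA2 was at 0.14 ± 0.17.

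**Figure D4:**
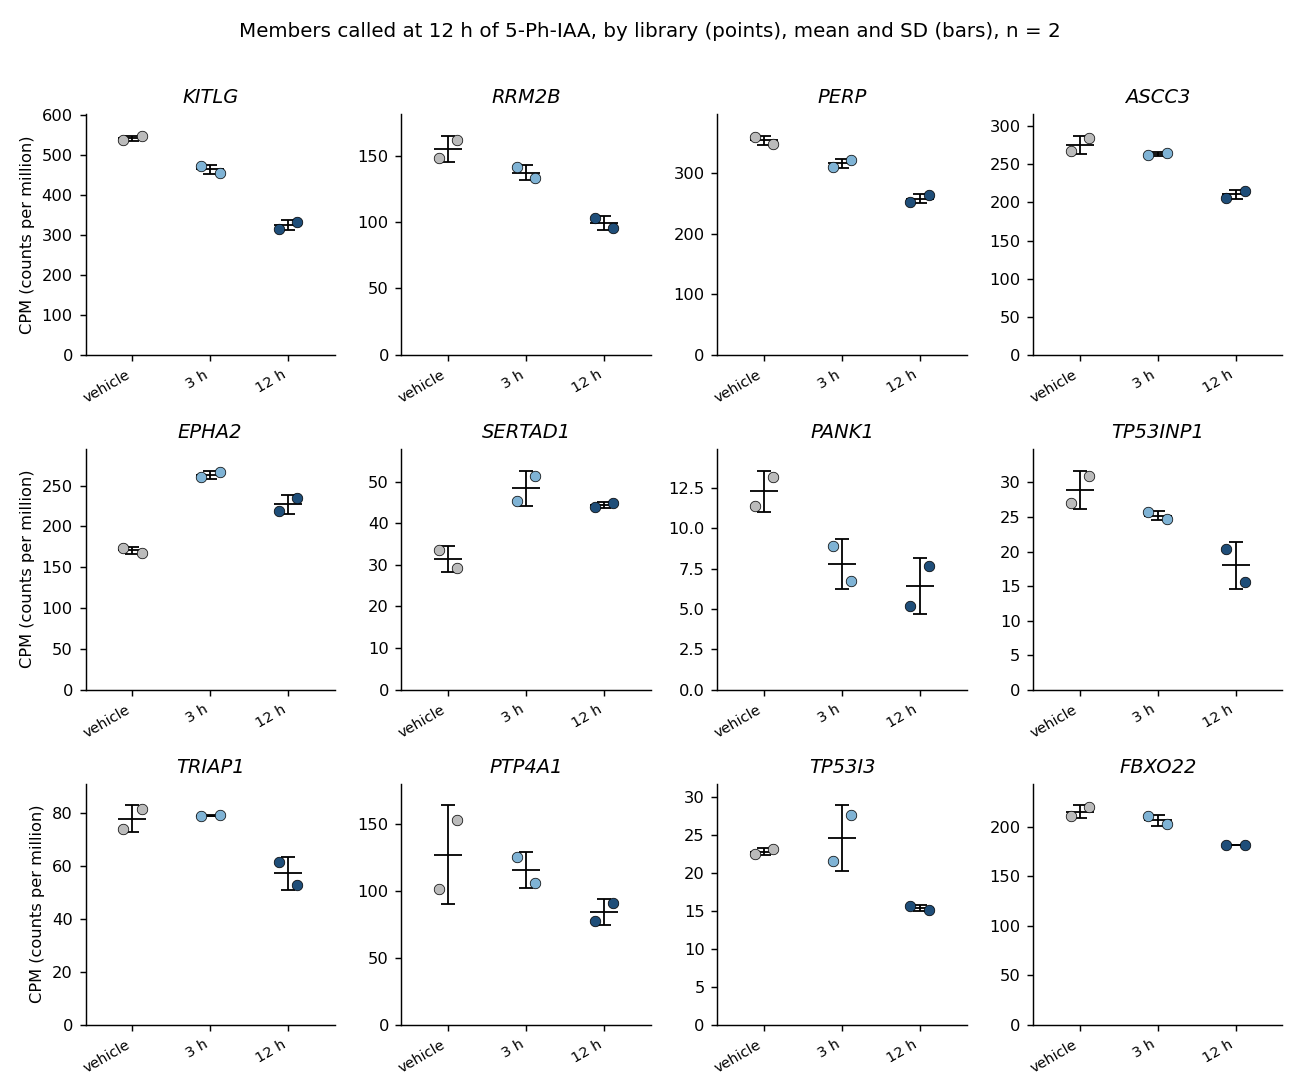
CPM of the 12 members called at 12 h of 5-Ph-IAA, in vehicle, at 3 h and at 12 h; points are libraries and bars the mean and SD of 2. EPHA2 and SERTAD1 are above vehicle at both times, and the other 10 have both 12 h libraries below both vehicle libraries.

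Set directly against 3 h, 12 h of 5-Ph-IAA gave 7 lower members and no higher one, 17.9% of members where 5.79% of all genes were called down and 2.35% up. Of them 6, KITLG, RRM2B, ASCC3, PERP, TRIAP1 and TP53I3, had also fallen against vehicle; the comparisons share the 12 h libraries. KITLG differed by -0.52 ± 0.063 (adjusted p = 0.00135, edgeR), RRM2B by -0.45 ± 0.086 (adjusted p = 0.00814, edgeR) and TP53I3 by -0.67 ± 0.16 (adjusted p = 0.0252, edgeR). LIF, a cytokine of the interleukin 6 family (chr22:30240447-30246851), was called in this comparison alone. It had 54.6 and 53.5 CPM in vehicle, 65.4 and 63.6 CPM at 3 h and 49.0 and 46.0 CPM at 12 h, so that it was highest at 3 h. Its change from 3 h was -0.43 ± 0.099 (adjusted p = 0.0203, edgeR) and its change from vehicle at 12 h was -0.17 ± 0.099 (adjusted p = 0.314, edgeR).

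The 12 h calls differed in how far they rested on single libraries. KITLG, RRM2B, PERP, ASCC3 and EPHA2 kept their calls against vehicle whichever of the 6 libraries was left out, including the shallow second 12 h library. KITLG, RRM2B, PERP and ASCC3 also kept them under all 6 other settings tried. FBXO22 lost its call without any one of the 6, at -0.25 to -0.21, and TP53I3 without any vehicle or 12 h library, at -0.58 to -0.54. PANK1, PTP4A1 and SERTAD1 lost theirs without the second vehicle or the first 12 h library, and TP53INP1 and TRIAP1 without the second vehicle or the second 12 h library; over all left-out libraries their values ran from -1.24 to -0.67, -0.88 to -0.29, 0.40 to 0.61, -0.88 to -0.51 and -0.55 to -0.34 in that order of genes. The other settings also ended calls: TP53I3 lost its call by DESeq2, with RLE scaling and with the compared groups alone, PTP4A1 by DESeq2, with the compared groups alone and in the fit of all 14 libraries, FBXO22 with RLE scaling, with the compared groups alone and in that fit, TRIAP1 with the compared groups alone and in that fit, and TP53INP1 with the compared groups alone. The count of called members was 6 without the second vehicle library, 7 without the first 12 h library and 8 without the second, where 8.37%, 4.67% and 9.53% of all genes were called in that order, up and down together. Against 3 h, the count was 3 without either 3 h library or the first 12 h library, where 2.98% to 4.53% of all genes were called, and 12 without either vehicle library, where at least 10.8% were; PERP and TRIAP1 lost this call in the fit of all 14 libraries, and KITLG and RRM2B kept theirs in all 6 fits with a library left out. Mitochondrial transcripts made up 0.251% and 0.291% of counts at 12 h, against 0.163% and 0.215% in vehicle, and their part in the result was not tested.

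The other p53 targets were mixed at 12 h: 4 of 32 fell, 12.5% where 7.97% of all genes did, and 3 rose, 9.38% where 3.39% of all genes did. CCNG1, a cyclin induced by p53, fell by 0.89 ± 0.072 on the log2 scale (adjusted p = 0.000171, edgeR), MDM2 by 0.39 ± 0.066 (adjusted p = 0.00291, edgeR) and the growth regulator SESN1 by 0.63 ± 0.13 (adjusted p = 0.01, edgeR). Of the 32, 19 were below 0 and 13 above. Among the higher, BCL2L1 had 209 and 207 CPM at 12 h, against 158 and 173 CPM in vehicle. PLK3 had 32.7 and 38.1 CPM, against 27.0 and 20.3 CPM. CDKN1A was at 336 and 341 CPM in vehicle, 385 and 377 CPM at 3 h and 322 and 355 CPM at 12 h, a 12 h difference of -0.0054 ± 0.069 (adjusted p = 0.98, edgeR). Of the 27 stress response genes, 3 rose (11.1%) and 2 fell (7.41%) at 12 h, beside the same shares of all genes, with SLC7A5 highest among the called at 0.56 ± 0.095 (adjusted p = 0.00316, edgeR). At 3 h PLK2 was the only other p53 target called, at 0.43 ± 0.062 (adjusted p = 0.027, edgeR). HNRNPU itself was higher at 12 h by 0.31 ± 0.063 (adjusted p = 0.00744, edgeR).

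The responses to Nutlin and to 12 h of 5-Ph-IAA come from sets with separate vehicles and can be laid side by side. Of the 39 members, 20 were above 0 with Nutlin on average and below 0 at 12 h, 9 were above 0 in both, 9 were below 0 in both and 1 was below 0 with Nutlin and above 0 at 12 h. Taken singly, 29 were above 0 with Nutlin and 29 below 0 at 12 h, so many opposite signs would be counted whether or not the responses are linked. The same counts over all genes were not made, and a link was not tested. There were 17 members called in at least 1 of the 9 comparisons and 22 tested members called in none. The comparisons share libraries, and the share of all genes called in at least 1 was not counted, so these counts have no background. At 12 h against vehicle alone, 3.39% of all genes were called up and 7.97% down. KITLG was below 0 with Nutlin in both arms without passing and fell at 12 h. EPHA2 and SERTAD1 were above 0 with Nutlin, at 0.37 ± 0.11 and 0.24 ± 0.078 on average, and rose at 12 h. ISCU ranged from -0.15 to 0.068 on the log2 scale over the 9 comparisons.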

How the data were processed

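Total RNA was sequenced from stranded, ribosomal RNA depleted libraries, per the labels' protocols. STAR 2.7.10b, RSEM and DESeq2 1.48.1 and the builds hg38 and GRCh38 are named in the submitters' processing notes. The authors deposited RSEM expected counts per gene for each library, with no normalization, per the file headers. TPM values, scaled by gene length and library by RSEM, were deposited beside them, per the file headers; the annotation release is not given in the sources used here.

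Expected counts were rounded to whole numbers and fitted with edgeR 4.0.16 (R 4.3.3) by its quasi-likelihood F test with 1 coefficient per group, TMM scaling, a filter on low counts (filterByExpr, minimum 10, total 15) and Benjamini-Hochberg adjustment over all genes tested (17251 in the Nutlin set, 19049 in the time course). The sets were fitted apart, with 4 and 3 residual degrees of freedom, and a change was called at an adjusted p under 0.05. CPM levels were scaled separately in each set, so a gene's level in one cannot be read against the other. Standard errors are the log2 fold change divided by the square root of F. Libraries held 3535163 to 35140464 estimated counts, and values per library are given as replicate 1 then 2. Gene names and positions came from GENCODE 29 on GRCh38 through the gene identifiers, and promoter windows from RefSeq on GRCh38.p14; 9 members had no window. The fits were first run on simulated counts with known changes. Those changes were larger than most of the members' changes, so the simulation does not check calls of the size seen here. Alternatives were DESeq2 1.42.0, RLE scaling, no filter on low counts, a replicate block, fits of the compared groups alone or of all 14 libraries, and leaving out each library.

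The members, the lists of other p53 targets and of stress response genes, and the tests were chosen with earlier results of these data known. Members called in any comparison are given by library. Of the other lists, CDKN1A, MDM2 and HNRNPU are named, with up to 4 genes that passed in a comparison, by p.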

Additional observations from a re-analysis of the deposited data

How the results depend on the processing

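No log2 value of a called member changed sign in any of 333 alternative values for 27 calls; 240 kept the call and 93 lost it. Counts of called members under other settings are given here without the shares of all genes called, so they are not a result about the members. The number of called members moved as follows. With no filter on low counts it was 5 for Nutlin against vehicle, 2 for Nutlin with 5-Ph-IAA against 5-Ph-IAA, 8 for the averaged Nutlin effect, 1 for Nutlin with 5-Ph-IAA against Nutlin, 2 at 3 h and 13 for 12 h against 3 h. With the compared groups alone it was 0 for Nutlin against vehicle, 7 for Nutlin with 5-Ph-IAA against 5-Ph-IAA and 7 at 12 h. DESeq2 called 3 for Nutlin against vehicle and 2 at 3 h. With the replicate block, 0 were called for Nutlin against vehicle, 0 for Nutlin with 5-Ph-IAA against 5-Ph-IAA and 2 at 3 h, and PRKAB1 lost its call for the averaged effect; the other counts stayed within 1.5 times. The replicate numbers were not taken to pair libraries, since differences between replicates correlated by -0.0888 to 0.047 between groups.

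Leaving out 1 library gave 0 to 13 called members for Nutlin against vehicle, 0 to 5 for Nutlin with 5-Ph-IAA against 5-Ph-IAA, 0 to 14 for the averaged effect, 0 to 3 for the interaction, 0 in every fit for 5-Ph-IAA against vehicle in the Nutlin set, 0 to 5 for Nutlin with 5-Ph-IAA against Nutlin, 1 to 3 at 3 h, 6 to 12 at 12 h and 3 to 12 for 12 h against 3 h. These ranges too stand here without the shares of all genes called, so they are not a result about the members. A group reduced to 1 library was assumed to vary like the others. The cause of these shifts was not tested. In the second 12 h library, the shallowest, PANK1 rested on 28 estimated counts, ABCA12 on 19 and TRIM22 on 2.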
